A study of Mus musculus with 10 samples.

Results

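The genes for the protein subunits of the mitochondrial ribosome were followed in the hippocampus of mice with or without neuronal overexpression of PGC-1α. Members were all genes with a probe on the array whose symbol starts with Mrpl (large subunit) or Mrps (small subunit) followed by a digit, each represented by its brightest tested probe. There were 78 such genes among 23462 named genes with a probe, 49 of the large and 29 of the small subunit. They were covered by 104 probes, all of them well above background on all 10 arrays. Of the 78 members, 75 had a probe that could be tested, 46 of the large and 29 of the small subunit.

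The mitochondrial ribosome translates the few proteins encoded by mitochondrial DNA, which are core subunits of the respiratory chain and ATP synthase. Its ribosomal RNAs come from mitochondrial DNA, whereas all of its proteins are encoded in the nucleus, made in the cytosol and imported. PGC-1α is a transcriptional coactivator known for raising the expression of nuclear genes for mitochondrial proteins together with factors such as NRF1, GABP, the estrogen-related receptors and YY1. The comparison asks whether the transcripts of this set differed in the hippocampus under basal conditions.

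Both groups consisted of 12-week-old C57BL/6 mice without surgery, labelled male, with 5 arrays per group. Each array, labelled as a replicate, was taken as 1 mouse. The PGC-1αf/f controls carried a PGC-1α transgene in the Rosa26 locus that a floxed PGK-neo-STOP cassette keeps silent. The nPGC-1α mice carried the same allele plus an Eno2-Cre transgene, which is active in neurons, removes the cassette and allows PGC-1α and IRES-eGFP to be made. The controls were littermates without Cre, so that no group carried Cre alone. RNA came from whole hippocampus, in which fewer cells of a type and less RNA per cell cannot be told apart.

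All levels are log2 signals relative to the 75th percentile of the same array, and every difference is nPGC-1α minus PGC-1αf/f on that scale. The Ppargc1a probe read 2.20 ± 0.08 (SD, n = 5) in PGC-1αf/f and 2.20 ± 0.11 (SD, n = 5) in nPGC-1α, a difference of 0.00 (SE 0.09, limma adjusted p = 0.99). Whether this probe also reads the PGC-1α transgene is not known here, since its position was not analysed. The labels call all mice male, but Ddx3y, Kdm5d and Uty, which are encoded on the Y chromosome, rose clearly over background on 4 arrays only, replicate 1 of PGC-1αf/f and replicates 1, 3 and 5 of nPGC-1α. Replicate 1 of PGC-1αf/f and of nPGC-1α had 10.5% and 11.6% of spots marked as outliers, against at most 4.75% on the other arrays. Spots well above background made up 79.0% ± 2.79 (SD, n = 5) in PGC-1αf/f arrays and 71.2% ± 2.57 (SD, n = 5) in nPGC-1α (exact permutation test, two-sided, p = 0.00794, the smallest that 5 against 5 arrays can give). Markers of hippocampal excitatory neurons were well above background on all arrays for 10 of 10 genes, with an array median between -0.13 and 0.11 in PGC-1αf/f and between -0.01 and 0.15 in nPGC-1α, each gene taken from its own mean. Oligodendrocyte markers, all 7 of them well above background, ranged from -0.61 to 0.05 in PGC-1αf/f and from -0.35 to 0.41 in nPGC-1α, and choroid plexus markers stood high on replicate 4 of PGC-1αf/f (1.59) and replicate 3 of nPGC-1α (1.98). Microglia markers, of which 5 were tested, ranged from -0.02 to 0.06 in PGC-1αf/f and from -0.15 to -0.03 in nPGC-1α. These ranges did not overlap, but the nearest values were -0.021 and -0.027. Of the 5 markers, 3 were below 0: Aif1 (-0.30), Tmem119 (-0.21, limma adjusted p = 0.41) and Csf1r (-0.14). The other 2 were not, C1qa at 0.18 and Cx3cr1 at 0.00. On slide 1, replicates 1 to 4 of PGC-1αf/f lay in row 1 and those of nPGC-1α in row 2. Genotype and row cannot be told apart there. Replicate 5 of both groups lay in row 1 of slide 2. The part of these array properties in the results was not tested.

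The start regions shown here belong to the member of each subunit and direction with the lowest p, so that a motif match can be seen beside members whose values are given in full. They are the 120 bases before the annotated start, from RefSeq on GRCm38.p6, 5′ to 3′ on the gene's strand, with motif matches in capitals.
Mrps22 (chr9:98601680-98601799, minus strand): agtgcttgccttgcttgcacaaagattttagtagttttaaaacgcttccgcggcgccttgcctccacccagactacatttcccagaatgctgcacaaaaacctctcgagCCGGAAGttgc
Mrps9 (chr1:42851113-42851232, plus strand): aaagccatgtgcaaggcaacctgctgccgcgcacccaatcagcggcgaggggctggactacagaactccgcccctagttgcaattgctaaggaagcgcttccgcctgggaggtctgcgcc
Mrpl24 (chr3:87919424-87919543, plus strand): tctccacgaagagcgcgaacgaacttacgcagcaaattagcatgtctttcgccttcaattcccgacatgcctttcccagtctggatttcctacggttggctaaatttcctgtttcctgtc
Mrpl9 (chr3:94443216-94443335, plus strand): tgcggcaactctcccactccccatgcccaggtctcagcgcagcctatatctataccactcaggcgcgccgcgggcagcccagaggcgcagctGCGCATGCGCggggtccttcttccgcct
Mrps22 held the ETS/GABP motif CCGGAAG, starting 11 bases before the start. Mrpl9 held the NRF1 motif GCGCATGC on both strands, 1 overlapping match starting 28 and the other 26 bases before the start. Mrps9 and Mrpl24 held none of the 4 motifs searched in the stretch shown.

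Across windows from 250 bases before to 50 after the start, searched on both strands, 69 of the 78 members were found in the promoter table, with 75 windows. CCGGAAG, bound by ETS factors such as GABP, was present in 34.7% of member windows, in 13.3% of the windows of all tested genes and in 8.86% of all windows. AAGATGGC, the YY1 motif, was in 16% of member windows against 3.53% of those of tested genes and 2.75% of all windows, and it overlapped the ETS motif in 0 member windows. GCGCATGC was in 10.7% of member windows, 4.09% of those of tested genes and 2.71% of all windows, and lay in 7 of 43 large-subunit and 1 of 26 small-subunit genes. AAGGTCA, the motif of the estrogen-related receptors, was in 5.33% of member windows, 3.63% of those of tested genes and 4.72% of all windows. The median difference was -0.06 for the 26 tested members with the ETS motif and -0.05 for the 41 without it. For NRF1 it was -0.05 in 7 members with the motif and -0.05 in 60 without, for YY1 it was 0.01 in 10 with and -0.05 in 57 without, and for the estrogen-related receptor motif it was -0.07 in 4 with and -0.05 in 63 without. These matches are letters in a window and not bound sites.

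None of the 75 tested members passed the test between nPGC-1α and PGC-1αf/f mice. At an unadjusted limma p of 0.05, 0 members were higher and 0 were lower, where 3.19% of 17597 named genes were higher and 5.03% were lower. After Benjamini-Hochberg adjustment over all 39142 probes, 0 members passed, against 0.00568% of named genes (1 gene). The 95% interval of the difference lay within 1.5-fold in either direction for all 75 members and for 13440 of the 17597 named genes. Over these probes the interval bounds reached from -0.42 to 0.58. That limit holds for the brightest tested probe of each member, since over all 97 tested probes of the members the interval lay within 1.5-fold for 90, and at a dimmer probe of Mrpl44 it reached 1.36. The median within-group SD was 0.14 over the 56 members measured on all 10 arrays and 0.19 over 14892 named genes. Of the 75 members, 51 lay in the brightest of 5 equal bins of named genes. The comparisons of interval and SD with named genes were not matched for brightness.

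The 46 large-subunit genes had a median difference of -0.05, with 31 below 0 and a range from -0.15 to 0.16. The 29 small-subunit genes had a median of -0.04, with 20 below 0 and a range from -0.19 to 0.23. Subunits were assigned by symbol, so these 29 include Mrps18a and Mrps30, whose proteins lie in the large subunit, and Mrps36. Each of these was below 0. Together 51 of 75 members were below 0, beside 56.7% of all named genes, whose median was -0.02. The medians of the subunits differed by -0.01. Taken on each array over the 56 members with 10 values, the large minus small median differed by -0.02 between the groups. The SD of that array quantity within a group was 0.03. Members related to bacterial ribosomal proteins had a median of -0.04 (28 of 46 below 0), and those found in the mitochondrial ribosome alone had a median of -0.05 (22 of 28 below 0), a grouping chosen after the values were seen. Mrps36, which is known as a subunit of the oxoglutarate dehydrogenase complex, was kept out of that grouping, with a difference of -0.06 (SE 0.11, limma adjusted p = 0.86).

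**Figure D1:**
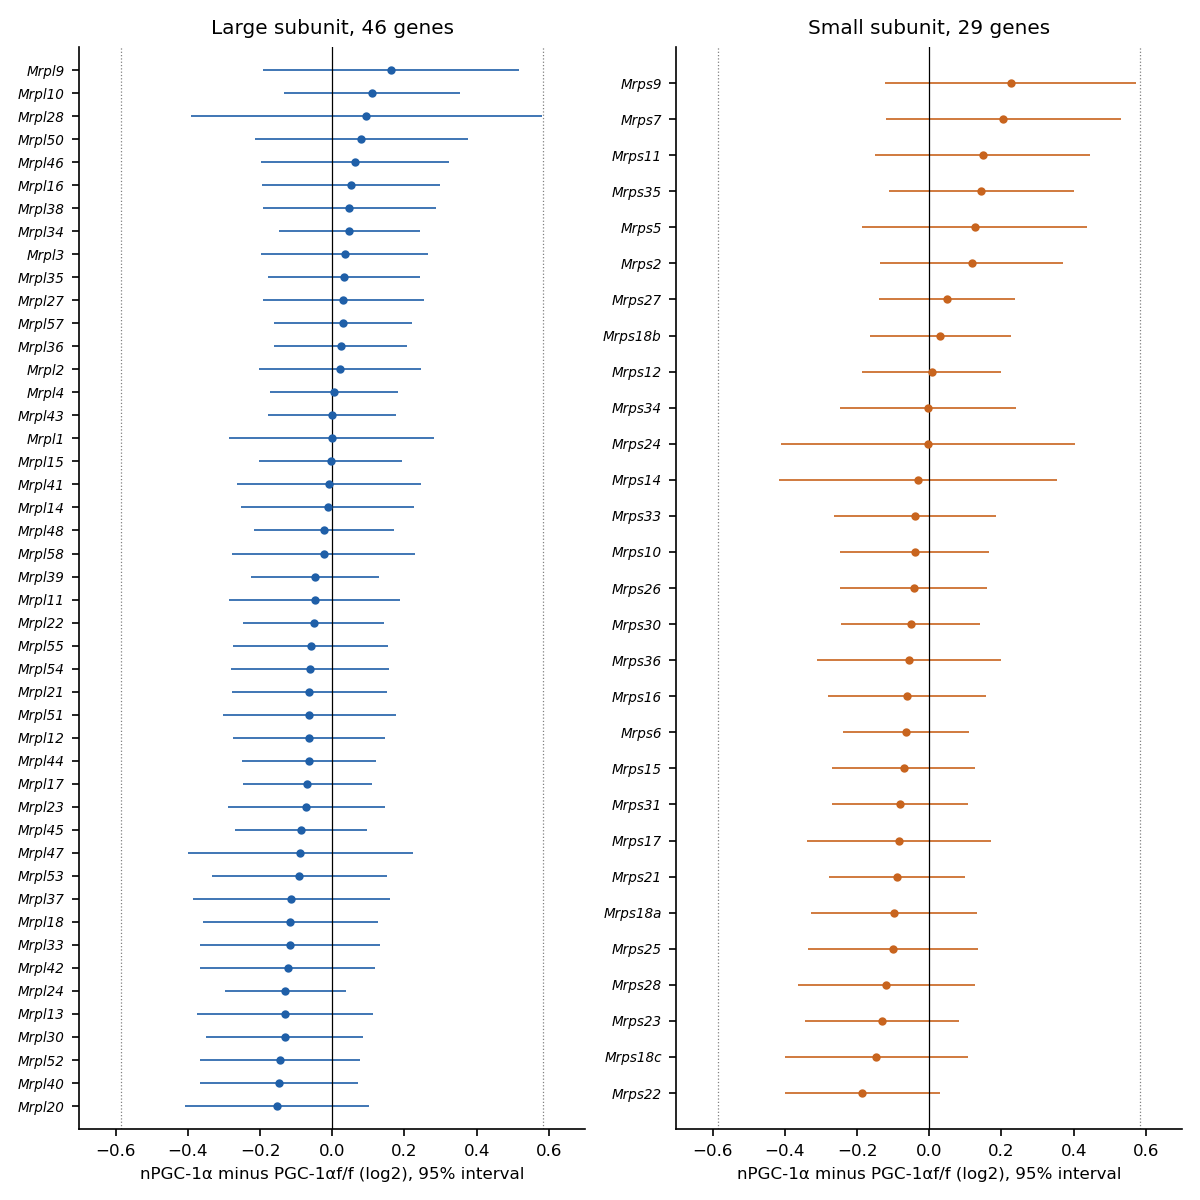
Difference between nPGC-1α and PGC-1αf/f (log2, x axis) for each of 46 large-subunit (left) and 29 small-subunit genes (right), with 95% intervals from limma as bars and dotted lines at a 1.5-fold change. All intervals include 0 and stay within the dotted lines.

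Both subunits were highest on replicate 1 of each group. For the 56 members with 10 values, the median deviation of a gene from its own mean was 0.15, 0.02, -0.03, 0.04 and -0.07 on PGC-1αf/f replicates 1 to 5. On nPGC-1α replicates 1 to 5 it was 0.13, -0.06, -0.08, -0.06 and -0.02. The groups overlapped. The large-subunit median minus the small-subunit median stayed between -0.05 and 0.05 on every array. The median of all named genes was 0.09 on replicate 1 of PGC-1αf/f and 0.07 on that of nPGC-1α, also the highest of their groups. The 3 arrays with the highest member medians were those with the lowest 75th percentile of signal, the quantity subtracted from every value. It was 3883, 4119 and 4223 there, against 4542 to 5253 on the others. On PGC-1αf/f replicate 4 (4119) the median of named genes was -0.01, below 0.03 on replicate 2 and 0.01 on replicate 5. The part of the scaling in these medians was not tested. Of the 19 members without all 10 values, 14 lacked a value on PGC-1αf/f replicate 1, 11 on nPGC-1α replicate 1 and 3 on another array.

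**Figure D2:**
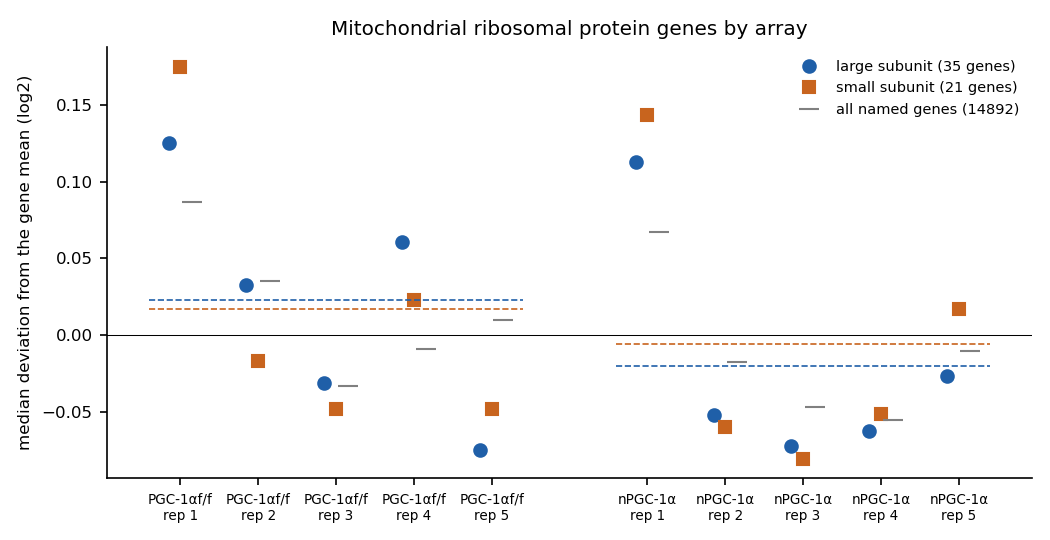
Median deviation from each gene's own mean (log2) on the 10 arrays for 35 large-subunit genes (circles), 21 small-subunit genes (squares) and 14892 named genes (bars), with dashed lines at the group means of each subunit. Replicate 1 of both groups stands highest, and the groups overlap.

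Among small-subunit genes, Mrps22, a subunit without a bacterial relative and a human disease gene, had the lowest p. It read 2.18, 1.89, 1.97 and 1.87 on PGC-1αf/f replicates 1, 3, 4 and 5, with the replicate 2 spot left out as an outlier. It read 1.76, 1.82, 1.67, 1.85 and 1.85 on nPGC-1α replicates 1 to 5. Mrps22 was the single member whose groups did not overlap, where 2.36% of named genes did not overlap, and the nearest values of the groups were 1.87 and 1.85. Its difference was -0.19 (SE 0.10, 95% interval -0.40 to 0.03, limma adjusted p = 0.48). The separation rested on the spot left out on PGC-1αf/f replicate 2. With outlier spots kept, the groups overlapped and the difference was -0.10 (limma adjusted p = 0.76). The difference was -0.41 on the 4 arrays with Y-linked transcripts, where PGC-1αf/f replicate 1 was the only control, and -0.08 on the 6 without.

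Mrps23 and Mrps18c were the other small-subunit members with the lowest p below 0, with differences of -0.13 (SE 0.10) and -0.15 (SE 0.12). Mrps18c is 1 of 3 paralogs of a bacterial S18 protein that occupy different places in the ribosome. The other paralogs Mrps18a, whose protein lies in the large subunit despite its symbol, and Mrps18b had differences of -0.10 (SE 0.10) and 0.03 (SE 0.09). Mrps30, likewise a protein of the large subunit by structure, had a difference of -0.05 (SE 0.09).

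Above 0, the small-subunit members with the lowest p were Mrps9, Mrps7 and Mrps35. Mrps9 read 1.28, 0.73, 1.29, 1.20 and 0.49 in PGC-1αf/f and 1.34, 1.22, 1.25, 1.11 and 1.18 in nPGC-1α. The control values of replicates 2 and 5 were the low ones, and the groups overlapped, giving 0.23 (SE 0.16, 95% interval -0.12 to 0.57, limma adjusted p = 0.60). Mrps7 read 1.46, 1.81, 1.80 and 1.18 on PGC-1αf/f replicates 2 to 5 and 1.76, 1.75, 1.89, 1.87 and 1.56 in nPGC-1α. Its difference of 0.21 (SE 0.15, limma adjusted p = 0.60) again came with a low control replicate 5. Mrps35 had a difference of 0.14 (SE 0.12, limma adjusted p = 0.64). Among landmark members of the small subunit, Mrps12 of the decoding region had 0.01 (SE 0.09), Mrps11 had 0.15 (SE 0.14), Mrps2 had 0.12 (SE 0.12), and the human disease genes Mrps16 and Mrps34 had -0.06 (SE 0.10) and 0.00 (SE 0.11).

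In the large subunit, Mrpl24 was the member with the lowest p. It read 2.15, 2.23, 2.02, 2.18 and 2.24 in PGC-1αf/f and 1.99, 2.04, 2.03, 2.03 and 2.08 in nPGC-1α. All 5 nPGC-1α arrays lay below the control mean, but control replicate 3 lay among them, and the difference was -0.13 (SE 0.08, 95% interval -0.30 to 0.04, limma adjusted p = 0.53). Mrpl40 read 1.54, 1.42, 1.30, 1.59 and 1.15 in PGC-1αf/f and 1.36, 1.18, 1.20, 1.28 and 1.23 in nPGC-1α, for a difference of -0.15 (SE 0.10, limma adjusted p = 0.58). Its lowest value was a control, replicate 5. Mrpl52, a subunit of the mitochondrial ribosome alone, had -0.14 (SE 0.10, limma adjusted p = 0.60). All 5 nPGC-1α values, or all those measured, were below the control mean in 9 of 75 members and in 2735 of 17597 named genes.

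Above 0 in the large subunit stood Mrpl9, Mrpl10 and Mrpl50. Mrpl9 read -0.97, -1.34, -0.80, -0.84 and -1.59 in PGC-1αf/f and -0.74, -1.05, -0.85, -0.93 and -1.17 in nPGC-1α. The groups overlapped, and the difference was 0.16 (SE 0.16, 95% interval -0.19 to 0.52, limma adjusted p = 0.71). These values came from a dim probe (mean level -1.03), because the brightest probe of Mrpl9 was left out for outlier marks, and that probe gave -0.02 (SE 0.09) with all spots kept. With array weights the difference at the dim probe was -0.01. Mrpl10, which anchors the stalk that recruits translation factors, had 0.11 (SE 0.11), with control replicate 1 at 0.41 and the other 4 controls from 0.79 to 0.95. Mrpl50 had 0.08 (SE 0.13). Mrpl12, the stalk protein that is also described as a partner of the mitochondrial RNA polymerase, had -0.06 (SE 0.09). Mrpl11 of the factor-binding centre had -0.05 (SE 0.11), Mrpl3 had 0.03 (SE 0.11), Mrpl44 had -0.06 (SE 0.08) and the peptidyl-tRNA hydrolase Mrpl58 had -0.02 (SE 0.11).

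Mrpl19, Mrpl32 and Mrpl49 were not tested because outlier marks left fewer than 3 values in a group. With all spots kept, their differences were 0.12 (SE 0.11), -0.09 (SE 0.12) and -0.01 (SE 0.16), none with a limma adjusted p under 0.66. The brightest probe of Mrps14 was left out for the same reason, so that its value came from a dim probe at -4.72 with a difference of -0.03, and the bright probe gave -0.07 (SE 0.10) with all spots kept.

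The difference of a member varied with the brightness of its probe, the mean level over the 10 arrays. In the 11 members below 1 on that scale, the median was 0.08 with 3 below 0, where the named genes of the same range had a median of -0.02 with 53.4% below 0. In the 28 members from 1 to 2, the median was -0.04 with 17 below 0, beside -0.01 and 55.4%. In the 36 members at 2 or more, the median was -0.06 with 31 below 0, beside -0.06 and 77.2%. The first range holds many named genes dimmer than nearly all members. With named genes split into 5 equal bins of brightness, the brightest 3, which hold 5, 18 and 51 of the 75 members, had medians of 0.01, -0.01 and -0.05, with 47.3%, 52.1% and 69.2% below 0. Members in those bins had medians of 0.08, 0.01 and -0.06. Across the 75 members Pearson's r was -0.40 and Spearman's rho was -0.49, and across all 17597 named genes, most of them dimmer, they were 0.11 and 0.05. Genes are not independent replicates here, since all share the same 10 arrays, and the brightness bins were chosen after the values were seen.

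**Figure D3:**
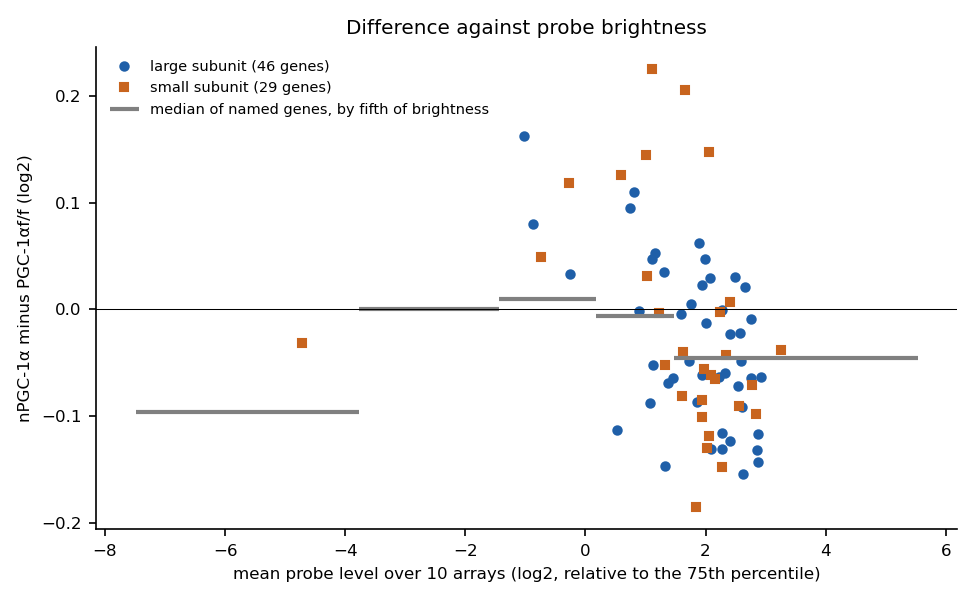
Difference between nPGC-1α and PGC-1αf/f (log2, y axis) against mean probe level (log2, x axis) for 46 large-subunit genes (circles) and 29 small-subunit genes (squares), with grey bars at the median of named genes in each of 5 equal bins of brightness. Members at 2 or more lie mostly below 0, as do the named genes of the brightest bin (median -0.05).

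Several probes of the same gene did not always give the same estimate of the difference. Of the 19 members with several tested probes, the dimmest gave the more positive difference in 12, and among the 8 whose probes lay more than 1 apart in brightness it did so in 7. The sign differed in 7 of the 19, and no probe had an unadjusted p under 0.05. Whether probes of a gene differed beyond their error was not tested, and the same counts were not made over all named genes. The brightest and dimmest probes of Mrps22 gave -0.19 (SE 0.10) and 0.18 (SE 0.25). Those of Mrpl44 gave -0.06 (SE 0.08) and 0.48 (SE 0.40), those of Mrps23 gave -0.13 (SE 0.10) and 0.21 (SE 0.16), and those of Mrps18b gave 0.03 (SE 0.09) and 0.39 (SE 0.23). Mrps7 went the other way, with 0.21 (SE 0.15) at the brightest and -0.06 (SE 0.08) at the dimmest probe.

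**Figure D4:**
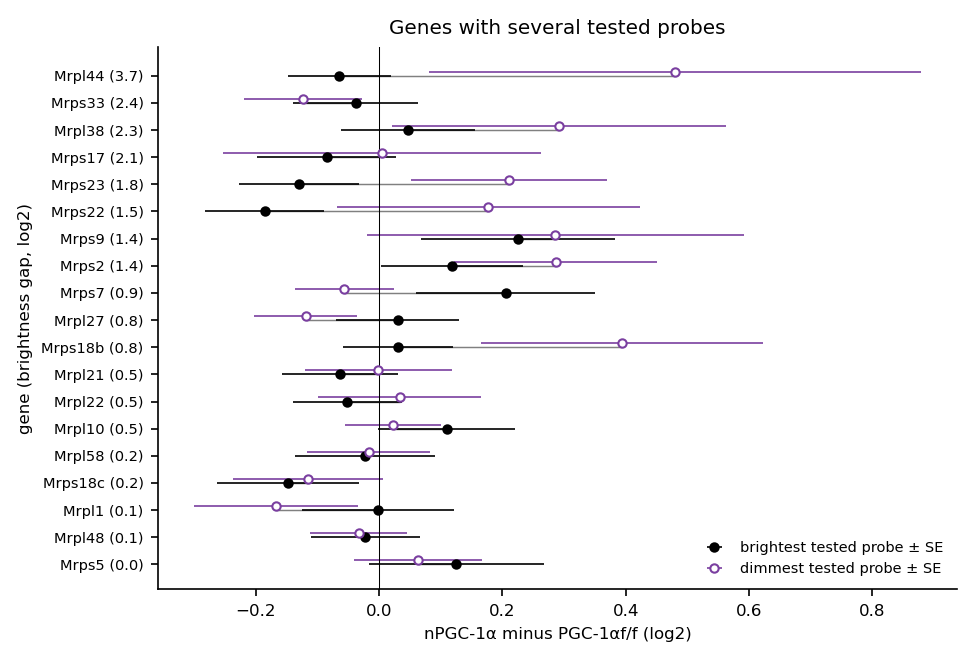
Difference between nPGC-1α and PGC-1αf/f (log2, x axis) at the brightest (filled) and dimmest (open) tested probe of the 19 members with several, with SE bars, ordered by the brightness gap given in brackets. Above a gap of 1 the open points lie to the right in 7 of 8 genes.

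The rest of the mitochondrial translation machinery is described from lists. Of 78 tested genes from 5 lists, 52 were below 0, beside 56.7% of named genes, with a median of -0.06. At an unadjusted limma p of 0.05, 0 were higher and 2 were lower, where 3.19% and 5.03% of named genes were, and 0 passed after adjustment. The 2 were Mrrf, the ribosome recycling factor, at -0.23 (SE 0.08, limma adjusted p = 0.29), and Mterf1b, a paralog of the transcription termination factor gene Mterf1a with which it may share probe signal, at -0.44 (SE 0.16, limma adjusted p = 0.31). Mrrf read 1.02, 0.88, 0.92, 1.06 and 0.95 in PGC-1αf/f and 0.85, 0.76, 0.65, 0.66 and 0.73 in nPGC-1α, with no overlap between the groups, as in 2.36% of named genes. By list, the medians were -0.07 for 5 ribosomal subunits without the Mrp prefix such as Dap3, -0.08 for 12 translation factors, -0.06 for 24 assembly and rRNA modification genes, -0.04 for 26 tRNA synthetases and tRNA enzymes, and -0.07 for 11 genes of mitochondrial transcription and mRNA handling.

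The small shift of the members below 0 depended on the scaling. Under quantile normalization the medians were 0.03 for the large and 0.02 for the small subunit, with named genes at 0.04, and 29 of 75 members were below 0. In the authors' log2 table they were 0.00 and -0.02, with named genes at 0.00. On the 4 arrays with Y-linked transcripts alone the median of all members was -0.13, with named genes at -0.07, and on the 6 arrays without it was -0.06. The subset of 4 holds only 1 PGC-1αf/f array, replicate 1.

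**Figure D5:**
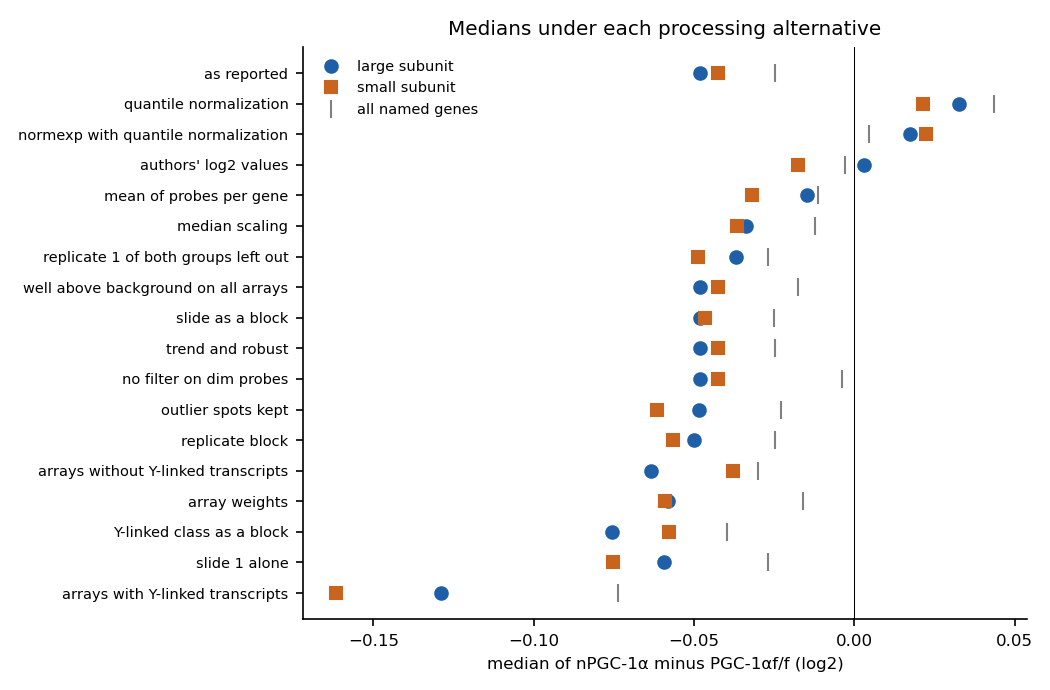
Median difference between nPGC-1α and PGC-1αf/f (log2, x axis) of the large (circles) and small subunit (squares) and of all named genes (ticks) under each way of processing (y axis). Quantile normalization puts all medians above 0, and the 4 arrays with Y-linked transcripts, of which 1 is PGC-1αf/f, put them lowest.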

How the data were processed

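Hippocampal RNA labelled with Cy3 was hybridised to Agilent mouse 8 x 60k arrays, 1 per labelled replicate. The authors deposited the scanner output (Feature Extraction 11.5.1.1 in the file headers), whose processed signal intensity is already background-corrected, and a table of log2 values normalized in GeneSpring; the arrays were designed on mm9. From the scanner files, control spots and outlier spots were left out, and log2 processed signal was taken relative to the 75th percentile of each array's gene spots. That percentile was computed with outlier spots included. Without them it was 2103 rather than 3883 on PGC-1αf/f replicate 1 and 2153 rather than 4223 on nPGC-1α replicate 1. On the other arrays it was 3836 to 4881 rather than 4119 to 5253. Probes that rose over background on each of the 5 arrays of either group, with at least 3 values per group, were tested (39142 of 56605) with limma 3.58.1 in R 4.3.3 (lmFit and eBayes, Benjamini-Hochberg over all probes), checked on simulated data. Replicates were labelled as separate samples, and the number of arrays limits the precision. Gene symbols came from the RefSeq table through accessions (59.7% of probes named). Members and lists were chosen with earlier results of these data known. Named members were those with an unadjusted p under 0.05 (0 found), the 3 with the lowest p per subunit and direction, members with landmark roles, those whose probes differed in direction with a p under 0.05 and those not tested. Promoters were shown for at most 4, picked after the values were seen. Alternatives covered scaling, background correction, filters, probe choice, slide, replicate block, Y-linked class, left-out arrays and the methods' Mann-Whitney test.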

Additional observations from a re-analysis of the deposited data

Results flagged for a closer look

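Of 63 groups of 4 or 5 arrays examined, 9 held 1 array far from the others of its group, where chance gives about 3.15. The groups share the same 10 arrays, and some are medians over the members. The flags are therefore not independent, and the 2 counts side by side are not a test. PGC-1αf/f replicate 1 had 10.5% of spots marked as outliers, and the next array of its group had 3.05%. The same array was low for Mrpl10, at 0.41 against 0.79 on the nearest, and high for Mrps34, at 2.54 against 2.20. PGC-1αf/f replicate 4 was high for Mrps18a, at 3.08 against 2.86. nPGC-1α replicate 1 was high in the median deviation of all members, at 0.13 against -0.02 on the nearest array, and of the large subunit, at 0.11 against -0.03. It was also high for Mrps23 (2.17 against 1.95), Mrpl11 (2.83 against 2.54) and Mrps16 (2.22 against 2.05). The part of the outlier spots in these values was not tested.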

How the results depend on the processing

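No member passed an adjusted p of 0.05 under any alternative that gave one, and no member was higher at an unadjusted p of 0.05 under any alternative. The count of lower members was 1 in place of 0 with a trended and robust fit (Mrps22), with the methods' Mann-Whitney test (Mrps22, exact p = 0.0159, the smallest that 4 against 5 values can give) and without PGC-1αf/f replicate 5 (Mrpl40, -0.21). The Mrps22 results leave out the outlier spot of PGC-1αf/f replicate 2, with which its groups overlapped. Leaving out 1 array at a time moved the count of lower members between 0 and 1 and that of higher members between 0 and 0. It moved the median of all members between -0.08 and -0.02, of the large subunit between -0.07 and -0.02, of the small subunit between -0.09 and -0.03, and the large minus small median between -0.01 and 0.02. On the 4 arrays with Y-linked transcripts the medians were -0.13 for all members and -0.16 for the small subunit, and the large minus small median was 0.033. That subset holds 1 PGC-1αf/f array and 65 testable members, and its lone control is assumed to vary like the other arrays. The sign changed there in 7 of 23 named members. Quantile normalization and normexp with quantile normalization put the median of all members at 0.02 and 0.02, and moved the sign of 6 and 5 of 26 named members. Replicate numbers were not taken as pairs, since the correlation of the deviations of same-numbered arrays, positive for all 5, was 0.08 for replicate 2 (0.11 to 0.36 for the others) and over 0.1 was required of each. With the replicate block the median of all members was -0.05 and 0 members passed.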
